A study of Mus musculus with 12 samples.

Results

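Small leucine-rich proteoglycans are secreted proteins of the extracellular matrix in which a core of leucine-rich repeats carries, in most members, chains of chondroitin, dermatan or keratan sulfate. They bind fibrillar collagens and set the diameter and spacing of fibrils, and several also hold growth factors such as TGF-β and BMPs or bind receptors on the cell surface. Fibroblasts are among their main sources. The 9 genes described here were fixed by name and found in both deposited tables, 9 of 43280 entries in the table of the IDH2 mutant cells and 9 of 23930 in that of the 2-HG-treated cells. Decorin (Dcn), biglycan (Bgn) and asporin (Aspn) form class I of the family. Lumican (Lum), fibromodulin (Fmod), osteomodulin (Omd) and Prelp belong to class II, osteoglycin (Ogn) to class III, and podocan (Podn) to a later branch.

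MEF cells, fibroblasts taken from C57BL/6 mouse embryos at embryonic day 13.5 and spontaneously immortalized by passage, were profiled in 4 groups of 3 libraries. 2MUT cells stably expressed FLAG-tagged human IDH2 with the R172S mutation from the retroviral vector pMXs-puro, and Control cells carried this vector without an insert. Both were selected as puromycin-resistant cells, and the sources used here do not say whether they were pools or clones. A line expressing wild-type IDH2 was not among the RNA-seq libraries. The 2-HG(+) cells were MEF cells, with no vector named in the labels, that received 300 μM of a membrane-permeant octyl ester of (R)-2-HG for 24 h. The 2-HG(-) cells are labelled as given DMSO for the same time, whereas the text of the study describes them as not treated. The mutant enzyme makes 2-HG, so the comparisons asked how the cells responded to the mutant and to its metabolite. The sources used here do not say whether the 3 libraries of a group came from separate cultures, and p-values measure only the spread between these libraries.

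The libraries held between 6472439 and 7313602 reads in the 2MUT experiment and between 14959318 and 18363768 in the 2-HG experiment. A level of 3 reads, used as the floor, was 0.41 to 0.464 RPM in the first and 0.163 to 0.201 RPM in the second, where RPM is reads of a gene per 1000000 reads of its library. Fibroblast markers were abundant, with sums over the list of 14412 to 16382 RPM in Control and 21605 to 23250 RPM in 2-HG(-), mostly from Col1a1, Col1a2, Vim and Fn1. Fap was at or under 0.144 RPM in every group mean, S100a4 averaged 0.142 RPM (Control) and 0.144 RPM (2MUT), and Thy1 was 80.4 RPM in Control but 2.76 RPM in 2-HG(-). The leukocyte list summed to at most 14.7 RPM in any library, mostly Cd68, the endothelial list to at most 3.71 RPM, and the epithelial list to at most 1.9 RPM. Epcam and Krt18 were at 0 in all 12 libraries, and Ptprc was at 0 in all of the 2-HG experiment and at or under 0.0473 RPM in the group means of the other. These are bulk libraries, in which fewer cells expressing a gene and less RNA per cell cannot be told apart.

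Most of the family lies in clusters of the mouse genome (GRCm38, GENCODE M21). Ecm2, Aspn, Omd and Ogn follow each other on the forward strand of chromosome 13 within 119.7 kb, with Aspn at chr13:49544443-49567565, Omd at chr13:49582462-49592822 and Ogn at chr13:49608046-49624501. Dcn (chr10:97479609-97518143) and Lum (chr10:97565128-97572703) share a cluster on chromosome 10 with Kera and Epyc. Prelp (chr1:133910304-133921414) and Fmod (chr1:134037254-134048277) share another on chromosome 1 with Optc. Bgn (chrX:73483602-73495933) and Podn (chr4:108014791-108096445) stand alone. Podn overlaps Scp2 on the same strand, so its annotated span is not its own. The gene Cenpp spans the chromosome 13 cluster on the opposite strand, and it was listed at 0 in all 6 libraries of the 2MUT experiment.

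Because Aspn, Omd and Ogn all fell in the 2-HG experiment, the 250 bases before the annotated start of each are shown, with those of Bgn, which fell in both experiments and lies outside the cluster. The sequences are from an extract of RefSeq on GRCm38.p6, and the 4 shown are all on the forward strand. In the extract used, 7 of the 9 members had an entry and Dcn and Lum did not. Capitals mark matches on either strand to ACGTG, the core of the hypoxia response element, or to TATAAA.
Aspn, chr13:49544193-49544442: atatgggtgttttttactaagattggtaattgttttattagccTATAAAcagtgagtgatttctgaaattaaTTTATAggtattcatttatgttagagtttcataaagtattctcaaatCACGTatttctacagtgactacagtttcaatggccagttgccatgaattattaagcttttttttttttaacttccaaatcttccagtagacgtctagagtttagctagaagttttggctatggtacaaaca
Omd, chr13:49582212-49582461: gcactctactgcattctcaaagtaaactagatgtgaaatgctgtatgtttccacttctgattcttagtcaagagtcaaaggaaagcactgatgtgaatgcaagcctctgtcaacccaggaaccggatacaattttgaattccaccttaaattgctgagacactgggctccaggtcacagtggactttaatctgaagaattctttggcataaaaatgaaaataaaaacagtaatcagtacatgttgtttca
Ogn, chr13:49607765-49608014: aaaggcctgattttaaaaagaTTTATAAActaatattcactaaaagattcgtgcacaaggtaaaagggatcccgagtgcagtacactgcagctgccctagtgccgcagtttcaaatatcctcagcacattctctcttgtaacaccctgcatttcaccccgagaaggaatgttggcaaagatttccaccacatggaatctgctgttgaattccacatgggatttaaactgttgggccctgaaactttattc
Bgn, chrX:73483351-73483600: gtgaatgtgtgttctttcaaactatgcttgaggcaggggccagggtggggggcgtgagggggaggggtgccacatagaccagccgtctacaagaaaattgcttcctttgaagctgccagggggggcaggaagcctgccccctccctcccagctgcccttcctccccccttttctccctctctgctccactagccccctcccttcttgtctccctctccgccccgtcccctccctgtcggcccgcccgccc
Aspn held ACGTG on the reverse strand 131 bases before the start and TATAAA on the forward and on the reverse strand, 207 and 178 bases before it. Ogn held TATAAA on each strand in overlapping positions, 229 and 227 bases before the start, and Omd and Bgn held neither motif. Distances are from the RefSeq start, the base after each stretch, which for Ogn and Bgn differs from the GENCODE start given above. The AP-1 motif TGANTCA was in none of the 4. Of 32851 such stretches in the RefSeq table, 16.6% held ACGTG, 12.4% TATAAA and 6.75% TGANTCA on either strand. No motif was found in all 4. The 3 genes of the cluster shown here were poor in G and C, with 30.0% in Aspn, 38.4% in Omd and 42.0% in Ogn against a median of 52.4% in the table, and held 2, 1 and 4 CG pairs against a median of 6. Ecm2, the other gene of the cluster, had 40.0% G and C, 3 CG pairs and none of the motifs. Bgn was richer, with 64.4% G and C and 7 CG pairs.

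In 2MUT cells, Dcn, Bgn and Ogn were lower than in Control and no member passed the test as higher. Of the 9 members, 4 had a mean of at least 1 RPM over the 6 libraries and were tested, and 3 of these fell at an adjusted p-value under 0.05 (limma on log2(RPM + 1) with Benjamini-Hochberg adjustment over 11065 genes). Over all genes tested, 17.3% were lower and 16.5% were higher by the same rule. The median log2 fold change of the 4 tested members was -0.65, and that of all genes was 0.01. No member was higher with edgeR or DESeq2 on the reads recovered from RPM, and 0 were higher at an unadjusted p-value under 0.05 with limma. These checks used the same filter, so only the 4 tested members could be called in them. Podn passed as higher without the filter (limma, adjusted p = 0.0125), and Omd passed as higher without the mean-variance trend (limma, adjusted p = 0.0366).

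With 2-HG, all 5 members that could be tested fell, namely Dcn, Bgn, Aspn, Omd and Ogn, and 4 members were under the filter. The background was 16.7% of 10384 genes lower and 16.1% higher (limma, Benjamini-Hochberg adjusted p-value under 0.05). The median log2 fold change of the 5 was -2.18, against -0.02 for all genes. No member was higher with limma at an unadjusted p-value under 0.05, nor with edgeR or DESeq2, all at the same filter. A member near the filter passes it more easily when its high group is far above, which holds for Aspn here and for Ecm2 below, so the share of tested members is given as a description.

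**Figure D1:**
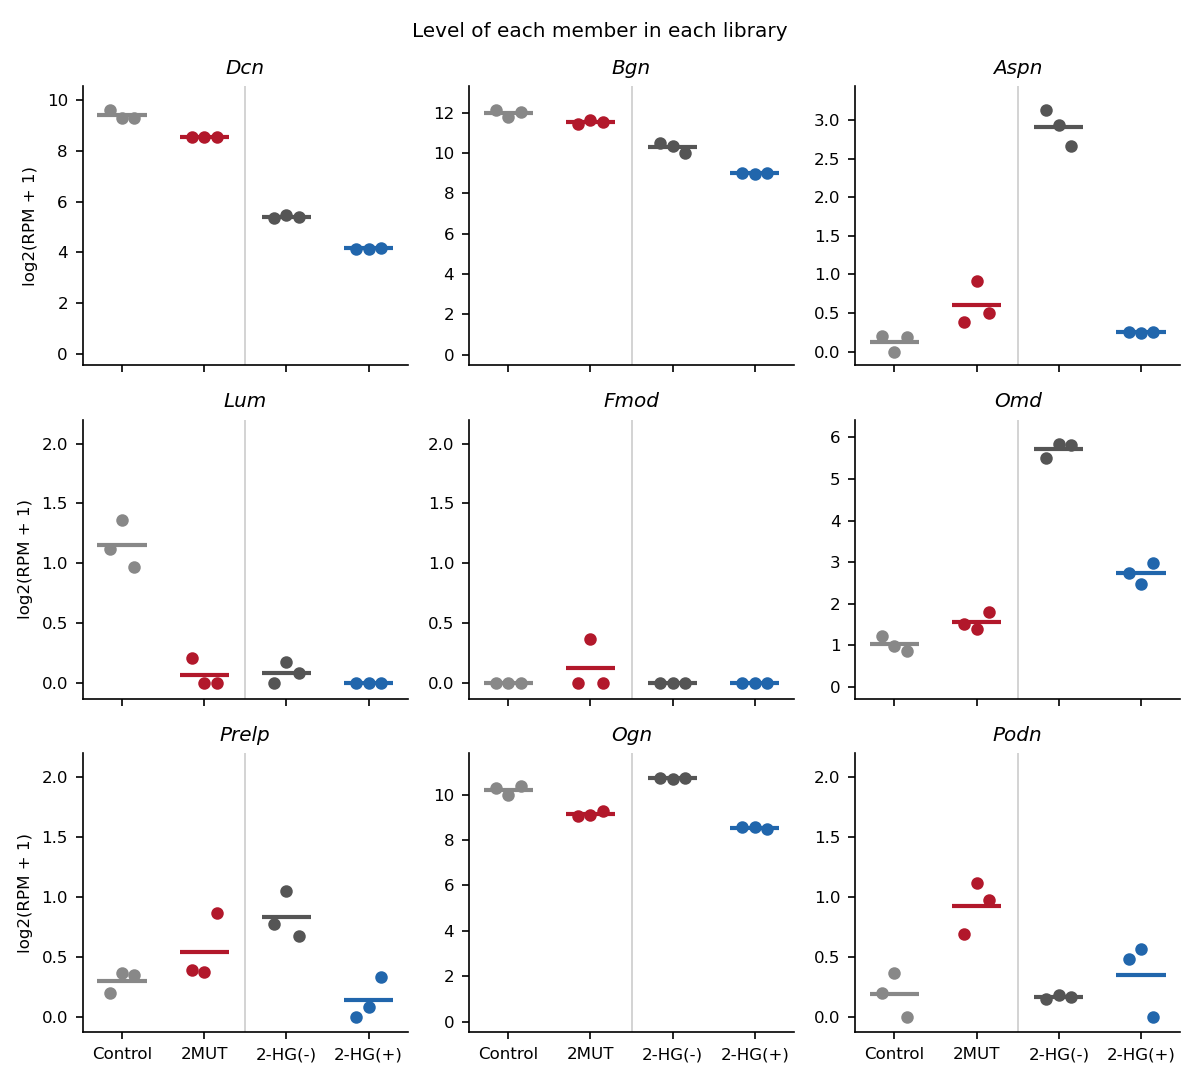
Level of each of the 9 members as log2(RPM + 1), with a point for each library and a line at the mean of each group of 3; the grey line separates the 2 experiments. Dcn, Bgn and Ogn are lower in both treated groups without overlap. Omd, Aspn and Prelp are lower in 2-HG(+) than in 2-HG(-) without overlap. In 2MUT, at low levels, Omd, Aspn, Prelp and Podn are higher than in Control without overlap, and Lum is lower without overlap. The share of all genes without overlap was not computed. Fmod lies at or near 0.

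Decorin binds collagen fibrils and TGF-β. Its level was 766 RPM, 627 RPM and 627 RPM in the Control libraries and 373 RPM, 369.8 RPM and 367 RPM in 2MUT. The groups did not overlap, and the 2MUT libraries lay closer together than the Control libraries. The means were 673 ± 80.3 RPM and 370.0 ± 2.92 RPM (SD, n = 3), so that 2MUT held 54.9% of the Control level, with a log2 fold change of -0.86 ± 0.10 (SE, limma, Benjamini-Hochberg adjusted p = 8.3e-05). In the 2-HG experiment Dcn was 40.3 RPM, 43.0 RPM and 40.5 RPM in 2-HG(-) and 16.8 RPM, 16.7 RPM and 17.2 RPM in 2-HG(+). Every treated library was again below every control library, at 40.9% of the control mean (log2 fold change -1.24 ± 0.11 SE, limma, adjusted p = 3.4e-05). The study placed Dcn and Ogn in its list of genes lowered by both the mutant and 2-HG, which was drawn from these libraries, so their direction here is not independent evidence.

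Biglycan, the closest relative of decorin, binds collagen, BMPs and Toll-like receptors. Its levels were 4438 RPM, 3538 RPM and 4163 RPM in Control and 2811 RPM, 3157 RPM and 2944 RPM in 2MUT. The groups did not overlap, and the lowest Control library, at 3538 RPM, lay nearest to the highest 2MUT library, at 3157 RPM. Bgn in 2MUT was at 73.4% of Control, with means of 4046 ± 461 RPM and 2971 ± 174 RPM (SD, n = 3) and a log2 fold change of -0.44 ± 0.10 (SE, limma, adjusted p = 0.0058). This call was lost with an unmoderated test of each gene (Benjamini-Hochberg adjusted p = 0.064, with adjusted p between 0.000529 and 0.064 over the 16 alternatives run). With 2-HG, Bgn went from 1444 RPM, 1305 RPM and 1030.1 RPM to 517 RPM, 495 RPM and 522 RPM. The treated libraries were tightly grouped at 40.6% of the control mean, a log2 fold change of -1.29 ± 0.13 (SE, limma, adjusted p = 8.4e-05).

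Asporin is the member whose core protein has a run of aspartate and lacks the usual chain attachment sites, and it also binds TGF-β. In 2-HG(-) it was 7.73 RPM, 6.62 RPM and 5.34 RPM, and in 2-HG(+) it was 0.198 RPM, 0.180 RPM and 0.196 RPM, which is 3 reads in each treated library. The treated libraries were thus at the floor. Summed over libraries, 330 reads in 2-HG(-) stood against 9 in 2-HG(+), a ratio of levels of 34.5 with a 95% interval of 18.0 to 76.2 that covers counting error only. The log2 fold change was -2.65 ± 0.16 on the log2(RPM + 1) scale (SE, limma, adjusted p = 4.4e-06), which understates so low a gene, and it was -5.04 with edgeR on recovered reads. In the 2MUT experiment Aspn was under the filter, at 0.148 RPM, 0 RPM and 0.137 RPM in Control and 0.309 RPM, 0.878 RPM and 0.413 RPM in 2MUT. These are 2 reads in all against 11, a ratio of levels of 5.64 (95% interval 1.23 to 52.4), and without the filter the difference did not pass (log2 fold change 0.47, limma, adjusted p = 0.0649).

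Osteomodulin, a keratan sulfate proteoglycan best known from bone, was lower with 2-HG. It was 44.3 RPM, 56.5 RPM and 55.2 RPM in 2-HG(-) and 5.68 RPM, 4.57 RPM and 6.86 RPM in 2-HG(+). The groups were far apart, and the treated mean of 5.71 ± 1.15 RPM was 11.0% of the control mean of 52.0 ± 6.68 RPM (SD, n = 3, log2 fold change -2.99 ± 0.16 SE, limma, adjusted p = 2.4e-06). In the 2MUT experiment Omd was close to the filter, with 1.33 RPM, 0.997 RPM and 0.820 RPM in Control and 1.85 RPM, 1.61 RPM and 2.48 RPM in 2MUT. All 3 mutant libraries were above all 3 Control libraries, on 41 reads against 22. The log2 fold change of 0.54 ± 0.25 did not pass the test (SE, limma, adjusted p = 0.12), but it passed without the mean-variance trend (adjusted p = 0.0366), and the adjusted p ranged from 0.0366 to 0.322 over the 15 alternatives run. Among osteoblast markers, Runx2 fell by 0.76 with 2-HG (limma, adjusted p = 0.031), Sp7 was at 0 in all 12 libraries and Ibsp at or under 0.0473 RPM in the group means, and the part of such cells in the change of Omd was not tested.

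Osteoglycin, also called mimecan, is a class III member that carries keratan sulfate in some tissues. It was 1274 RPM, 1019.6 RPM and 1331 RPM in Control and 541 RPM, 544 RPM and 615 RPM in 2MUT. The groups did not overlap, and the means were 1208 ± 166 RPM and 566 ± 41.9 RPM (SD, n = 3), so that 46.9% remained (log2 fold change -1.08 ± 0.11 SE, limma, adjusted p = 4e-05). With 2-HG it went from 1731 RPM, 1665 RPM and 1693 RPM to 386 RPM, 381 RPM and 355 RPM. Both groups were narrow, and 22.1% of the control level of 1696 ± 33.0 RPM was left (log2 fold change -2.18 ± 0.09 SE, limma, adjusted p = 6e-07).

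The other 4 members were near the floor and were not tested at the filter. Lumican, a keratan sulfate proteoglycan of cornea and skin that lies next to Dcn, was 1.18 RPM, 1.57 RPM and 0.957 RPM in Control and 0.155 RPM, 0 RPM and 0 RPM in 2MUT. This is 26 reads against 1, a ratio of levels of 25.4 with a 95% interval of 4.17 to 1039.6, and without the filter it passed the test (log2 fold change -1.08, limma, adjusted p = 0.00136). In the 2-HG experiment Lum had 3 reads in 2-HG(-) and 0 in 2-HG(+), both at or under the floor. Prelp, which binds heparan sulfate and collagen, was 0.708 RPM, 1.07 RPM and 0.600 RPM in 2-HG(-) and 0 RPM, 0.060 RPM and 0.261 RPM in 2-HG(+). The 39 reads against 5 gave a ratio of levels of 7.34 (95% interval 2.89 to 23.9), and the test without the filter passed (log2 fold change -0.69, limma, adjusted p = 0.00381). In the 2MUT experiment Prelp had 5 reads in Control and 10 in 2MUT, and the interval of the ratio of 2MUT to Control, 0.639 to 7.65, included no difference.

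Podocan was 0.148 RPM, 0.285 RPM and 0 RPM in Control and 0.618 RPM, 1.17 RPM and 0.963 RPM in 2MUT. Its 3 and 19 reads gave a ratio of levels of 6.49 (95% interval 1.91 to 34.3), and it passed the test without the filter as higher (log2 fold change 0.74, limma, adjusted p = 0.0125). With 2-HG the groups overlapped, with 0.109 RPM, 0.134 RPM and 0.120 RPM against 0.397 RPM, 0.481 RPM and 0 RPM. Fibromodulin, which binds collagen and lysyl oxidase, was at 0 in 11 of 12 libraries, and the second 2MUT library held 2 reads. At this depth no difference in Fmod was detectable.

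**Figure D2:**
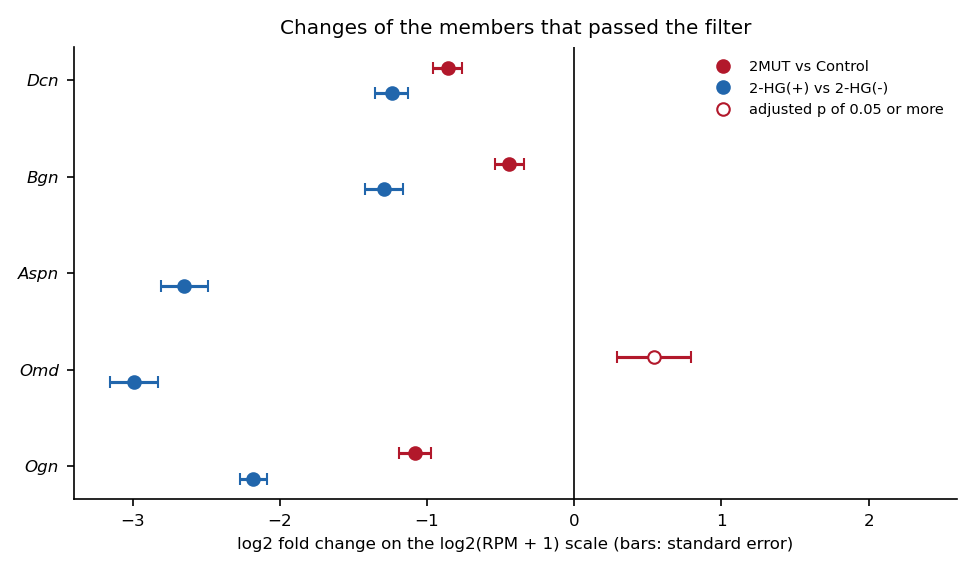
Log2 fold change on the log2(RPM + 1) scale, with its standard error, of each member that passed the filter, in 2MUT against Control (red) and 2-HG(+) against 2-HG(-) (blue). All points lie to the left of 0 except Omd in 2MUT, at 0.54, which is drawn open because its adjusted p-value was not under 0.05.

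The changes in the 2 experiments differed for the 4 members tested in both, and each was more negative with 2-HG. The difference of the changes, 2MUT minus 2-HG, was tested as a contrast over the 12 libraries for 9594 genes, of which 39.4% passed. It was 1.09 ± 0.15 for Ogn (SE, limma, Benjamini-Hochberg adjusted p = 5.8e-05) and 0.84 ± 0.17 for Bgn (adjusted p = 0.0017). Omd had a difference of 3.53 ± 0.26 (SE, limma, adjusted p = 2.5e-07), with a change of 0.54 in 2MUT and of -2.99 with 2-HG. Omd was only 1.05 RPM in Control, so on the log2(RPM + 1) scale it could not have fallen in 2MUT as far as with 2-HG. Part of its difference was thus fixed by the low Control level. For Dcn the difference was only 0.38 ± 0.13 (SE, limma, adjusted p = 0.035), and this call was lost in 11 of the 20 alternatives run, which were the replicate block (adjusted p = 0.0724), no trend (0.0531) and 9 libraries left out in turn. These were Control 2 and 3, each of the 2MUT libraries, 2-HG(-) 2 and 3, and 2-HG(+) 1 and 2, with adjusted p between 0.0524 without 2-HG(+) 1 and 0.077 without Control 3. Vector, selection, depth and duration of exposure differ between the experiments, and their part in the differences was not tested.

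Untreated levels of some members also differed between the experiments, and they are set side by side without a test because the tables were normalized separately and list different entries. Dcn was 673 RPM in Control and 41.3 RPM in 2-HG(-), and Bgn was 4046 RPM and 1259.8 RPM. The order was the opposite for Omd, with 1.05 RPM in Control and 52.0 RPM in 2-HG(-), and for Aspn, with 0.095 RPM and 6.57 RPM. Ogn was 1208 RPM and 1696 RPM.

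Summed over the 9 members, the family held 5187 to 6480 RPM in Control and 3729 to 4075 RPM in 2MUT. In the 2-HG experiment the sum was 2825 to 3269 RPM without and 899 to 926 RPM with the metabolite. Bgn and Ogn gave most of these reads in every group, followed by Dcn in Control, 2MUT and 2-HG(+), and in 2-HG(-) by Omd with 1.72% and Dcn with 1.35%. A value counts reads of a short amplified target of each transcript, so the shares are shares of reads and not of molecules. In Control, Bgn gave 68.2% of the family's reads and Ogn 20.4%, and in 2MUT these were 75.9% and 14.5%. In 2-HG(-) the shares were 41.0% for Bgn and 55.7% for Ogn, and in 2-HG(+) they were 56.3% and 41.2%. The reads of Ogn per read of Bgn were 0.287 to 0.320 in Control and 0.172 to 0.209 in 2MUT, and 1.20 to 1.64 in 2-HG(-) and 0.681 to 0.770 in 2-HG(+), so Ogn was lower relative to Bgn in every treated library.

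**Figure D3:**
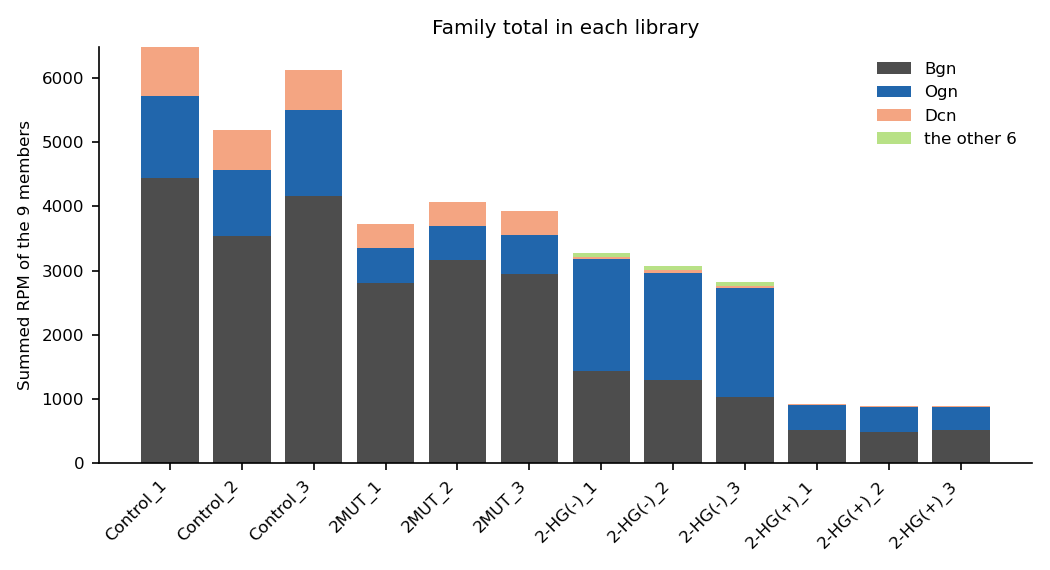
Summed RPM of the 9 members in each of the 12 libraries, stacked by gene. The bars run from 5187 to 6480 RPM in Control, 3729 to 4075 RPM in 2MUT, 2825 to 3269 RPM in 2-HG(-) and 899 to 926 RPM in 2-HG(+). The 6 members other than Bgn, Ogn and Dcn form the thin green band, which is thickest in 2-HG(-), where Omd gives 1.72% of the reads.

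With 2-HG, Aspn, Omd and Ogn of the chromosome 13 cluster fell, as given above, and Ecm2, the other gene of the cluster, was lower too. Ecm2, a matrix protein with leucine-rich repeats that is not among the 9 members, was 2.50 RPM, 1.87 RPM and 1.50 RPM in 2-HG(-) and 0.132 RPM, 0.060 RPM and 0.131 RPM in 2-HG(+) (log2 fold change -1.40 ± 0.17 SE, limma, adjusted p = 0.00026). Its 99 reads against 5 gave a ratio of levels of 18.6 (95% interval 7.73 to 58.7). Ecm2, like Aspn, reached the filter only through the 2-HG(-) libraries, with a mean of 1.03 RPM over the 6, and only Omd and Ogn were above 1 RPM in both groups, so the count of cluster genes that fell is given as a description. Of the protein-coding genes tested within 200 kb on either side, none passed the test as lower. Fgd3, Bicd2 and Nol8 had log2 fold changes of -0.15, -0.03 and -0.04 (limma, adjusted p = 0.52, 0.87 and 0.85), Ippk rose by 0.54 (adjusted p = 0.029) and Iars, an aminoacyl-tRNA synthetase, rose by 1.09 (adjusted p = 4.1e-05). These neighbours were taken by position after the values of the cluster had been seen.

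In 2MUT, Ogn was the gene of this cluster that passed the test. Omd did not pass, and Ecm2 and Aspn were under the filter. Ecm2 was 0.296 RPM, 0.285 RPM and 0.137 RPM in Control and 1.85 RPM, 1.90 RPM and 0.826 RPM in 2MUT, and without the filter it passed the test as higher (log2 fold change 1.00, limma, adjusted p = 0.00889). In the flanks Nol8 rose by 0.42 (adjusted p = 0.03), while Fgd3, Bicd2 and Iars had log2 fold changes of 0.26, -0.12 and 0.25 that did not pass. In the chromosome 10 cluster Dcn was the only gene tested, Kera was at most 0.149 RPM in any group mean and Epyc was at 0 in all 12 libraries. In the chromosome 1 cluster no gene passed the filter in either experiment, with Optc at most 0.201 RPM in a group mean.

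**Figure D4:**
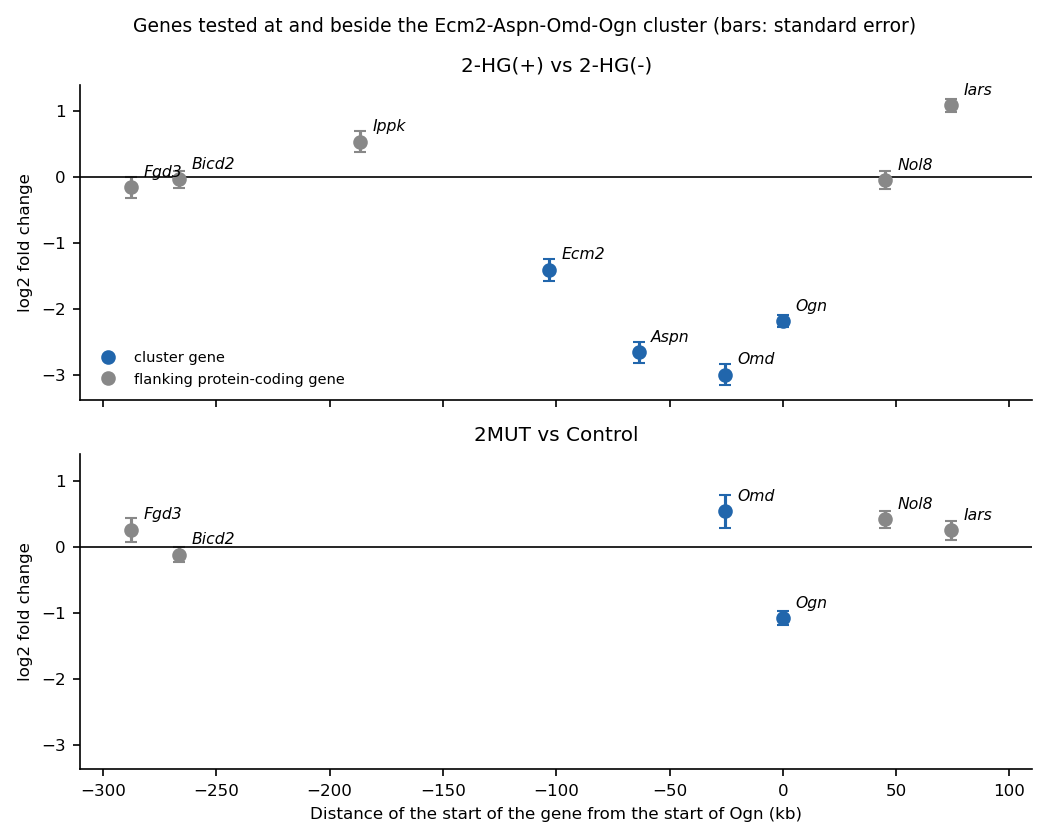
Log2 fold change, with its standard error, of the genes tested at and beside the chromosome 13 cluster, by the distance of the start of each gene from that of Ogn in kb; upper panel 2-HG, lower panel 2MUT. In the upper panel the 4 cluster genes (blue) lie between -1.40 and -2.99 and the flanking genes (grey) between -0.15 and 1.09; in the lower panel Ogn lies at -1.08 and Omd at 0.54.

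Fibrillar collagens and fibril-associated partners, the main ligands of the family, included more genes that were lower than higher in both experiments. Of 11 tested genes of this list, 5 fell and 1 rose in 2MUT (median log2 fold change -0.27), where 17.3% of all genes fell and 16.5% rose. With 2-HG, 8 fell and 0 rose (median -0.68), where 16.7% of all genes fell and 16.1% rose. These shares of all genes are the background for the counts of each list below. Col3a1, which encodes type III collagen, went from 144 ± 12.3 RPM to 28.0 ± 3.71 RPM in 2MUT (SD, n = 3, log2 fold change -2.33, limma, adjusted p = 5.5e-07). The metabolite took it from 477 ± 31.8 RPM to 186 ± 14.0 RPM (log2 fold change -1.35, limma, adjusted p = 1.3e-05). Col1a2 fell by 0.82 and by 0.81 on the log2 scale (limma, adjusted p = 8.8e-05 and 0.001). Col6a2 fell by 1.41 with 2-HG (adjusted p = 5.2e-05). Col12a1 rose in 2MUT by 0.63 (adjusted p = 0.0074) and fell by 0.36 with 2-HG (adjusted p = 0.014). Col1a1, Col1a2 and Col3a1 are also fibroblast markers, and the summed fibroblast list went to 13005 to 13455 RPM in 2MUT and 15239 to 16263 RPM in 2-HG(+), with 6 of 8 tested genes lower and 1 higher in 2MUT (all genes, 17.3% and 16.5%), and 4 lower and 1 higher with 2-HG (16.7% and 16.1%). The myofibroblast and smooth muscle list moved too, at 183 to 199 RPM in Control, 46.0 to 55.3 RPM in 2MUT, 407 to 439 RPM in 2-HG(-) and 241 to 260.4 RPM in 2-HG(+). In 2MUT, 2 of 3 tested genes of this list were lower, Acta2 and Cnn1, with log2 fold changes of -1.93 and -2.07 (limma, adjusted p = 5.4e-07 and 4.5e-05). With 2-HG, Acta2 fell by 0.95 (adjusted p = 6e-05), while Cnn1 rose by 0.42 (adjusted p = 0.011) and the median of the list was 0.22. Of 2 tested leukocyte genes in each experiment, Lyz2 rose in 2MUT from 0.560 ± 0.361 RPM to 2.62 ± 0.141 RPM (SD, n = 3, limma, adjusted p = 0.0041), and Cd68 fell by 0.51 with 2-HG (limma, adjusted p = 0.021). Lyz2 reached the filter only through the 2MUT libraries. Of the chondrocyte list Sox9 fell by 0.68 in 2MUT (limma, adjusted p = 0.0025), and of the tenocyte list Scx rose by 0.48 there (adjusted p = 0.031). Of the adipocyte list Pparg rose by 0.90 (limma, adjusted p = 0.008) and Fabp4 fell by 1.02 (adjusted p = 0.0024) with 2-HG. The part of these markers in the changes of the family was not tested.

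Among the enzymes that build the sugar chains, those of chondroitin and dermatan sulfate included the most genes higher in 2MUT. Of 13 tested enzymes of chondroitin and dermatan sulfate, 7 rose and 0 fell in 2MUT, against 16.5% and 17.3% of all genes, with a median log2 fold change of 0.44. They were Chsy1, which polymerizes chondroitin (log2 fold change 0.83, limma, adjusted p = 0.00017), Csgalnact1 and Csgalnact2, which start the chain (0.80 and 0.48, adjusted p = 0.0052 and 0.0062), Chpf and Chpf2 (0.54 and 0.48, adjusted p = 0.019 and 0.015), and the epimerases Dse and Dsel, which convert chondroitin to dermatan sulfate (0.44 and 0.43, adjusted p = 0.036 and 0.032). With 2-HG, 1 of 13 rose, the sulfotransferase Chst7, and Dse fell by 0.54 (limma, adjusted p = 0.0029). Of 9 tested enzymes that make the linkage to the core protein, 1 rose and 1 fell in 2MUT, and 1 fell with 2-HG, none of which is above the shares of all genes (16.5%, 17.3% and 16.7%). Pxylp1, the xylose phosphatase of the linkage, was the gene that rose in 2MUT (0.81, adjusted p = 0.00031) and fell by 0.87 with 2-HG ( adjusted p = 0.0025). None of 5 tested keratan sulfate enzymes passed in 2MUT, and 3 of 7 fell with 2-HG, among which the sialyltransferase St3gal1 fell by 0.58 ( adjusted p = 0.0049).

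Among proteases that act on the family or on collagen, 4 of 8 tested genes fell and 2 rose in 2MUT (all genes, 17.3% and 16.5%), and 5 fell and 1 rose with 2-HG (16.7% and 16.1%), so that the counts of genes that rose were near the background. Bmp1, which removes the propeptide of biglycan, fell by 0.62 with 2-HG (limma, adjusted p = 0.00067), and Pcolce, its enhancer on procollagen, fell by 1.09 (adjusted p = 0.0036). The related Pcolce2 rose in both, by 1.27 in 2MUT (adjusted p = 0.00088) and by 1.00 with 2-HG (adjusted p = 0.00051). Among the aggrecanases, Adamts1 fell by 1.23 in 2MUT (adjusted p = 7.6e-06) and by 0.55 with 2-HG (adjusted p = 0.0018). Adamts5 fell by 0.33 in 2MUT (adjusted p = 0.031) and by 1.82 with 2-HG (adjusted p = 1.1e-05). Adamts4 fell by 1.09 in 2MUT (adjusted p = 3.4e-05), and its log2 fold change of -0.23 with 2-HG did not pass (adjusted p = 0.23).

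Of 8 tested growth factors that the family binds, 4 were higher and 2 lower in 2MUT, against 16.5% and 17.3% of all genes. With 2-HG, 2 were higher and 2 lower, which is near the shares of all genes, 16.1% and 16.7%. Bmp4 was 178 ± 8.56 RPM in Control against 63.6 ± 6.59 RPM in 2MUT, and 34.6 ± 4.41 RPM in 2-HG(-) against 6.52 ± 0.754 RPM in 2-HG(+) (SD, n = 3, log2 fold changes -1.47 and -2.24, limma, adjusted p = 4.1e-06 and 5.9e-06). Igf1 rose in 2MUT, from 1.03 ± 0.519 RPM to 7.46 ± 1.52 RPM (adjusted p = 0.00016), and fell in 2-HG(+), to 1.48 ± 0.422 RPM against 6.28 ± 0.486 RPM in 2-HG(-) (SD, n = 3, limma, adjusted p = 0.00013). Tgfb2 rose in 2MUT by 1.41 (adjusted p = 0.0048), and the matricellular protein Wisp1 rose in both, by 1.03 (adjusted p = 0.00015) and by 0.63 (adjusted p = 0.016).

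Of 11 tested receptors bound by the family, 6 were higher and 1 was lower in 2MUT (median log2 fold change 0.53), against 16.5% and 17.3% of all genes. With 2-HG, 0 were higher and 4 were lower (median -0.30), against 16.1% and 16.7%. The TGF-β receptors Tgfbr2 and Tgfbr3 rose in 2MUT, by 0.55 and 0.62 (limma, adjusted p = 0.00072 and 0.00025), and fell by 0.57 and 0.96 with 2-HG (adjusted p = 0.0011 and 0.00011). Tlr2, a receptor of biglycan, rose by 0.66 in 2MUT (adjusted p = 0.025), and Cd44 fell by 0.79 there (adjusted p = 7.4e-05). Of the other matrix proteoglycans, 3 were tested. Agrn fell by 0.67 and 0.57 (adjusted p = 0.0013 and 0.026), and Vcan rose in 2MUT by 0.47 (adjusted p = 0.0096). Of 2 tested genes among other members of the wider leucine-rich family in each experiment, Tsku rose in 2MUT from 1.46 ± 0.245 RPM to 6.22 ± 0.359 RPM (SD, n = 3, limma, adjusted p = 0.00026) and Ecm2 fell with 2-HG, as above.

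**Figure D5:**
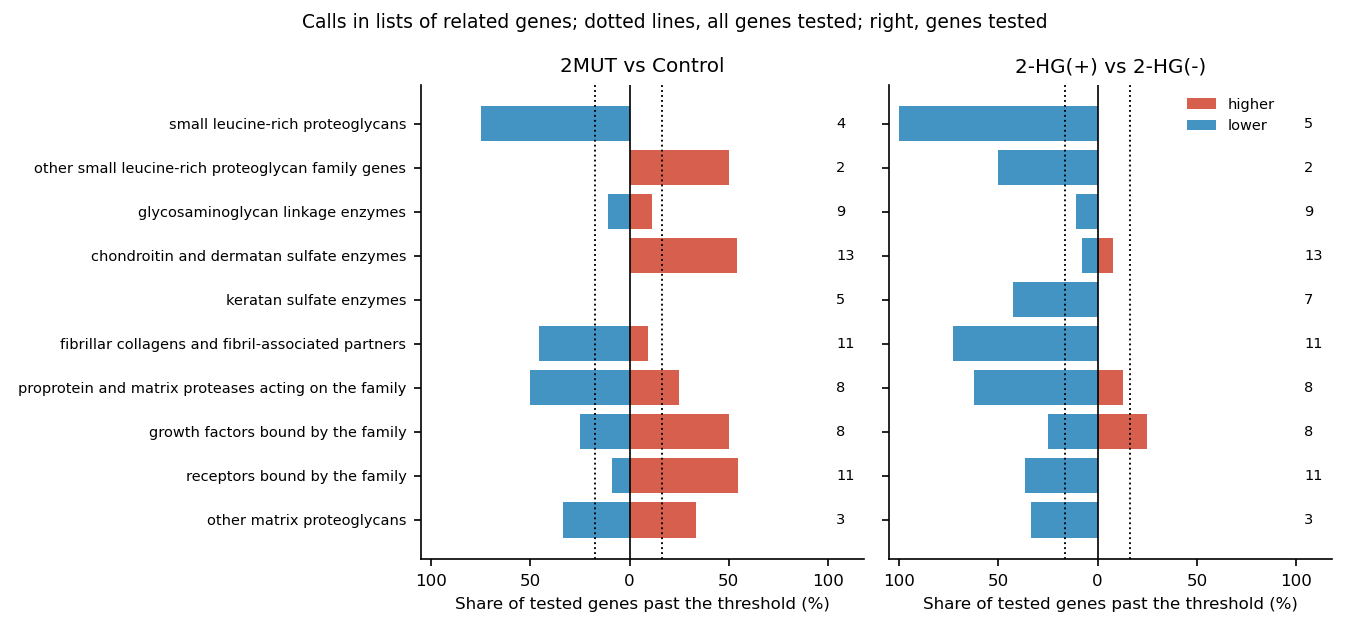
Share of tested genes in each list that passed the threshold as higher (red, to the right) or lower (blue, to the left), in percent, for 2MUT (left panel) and 2-HG (right panel); dotted lines are the shares over all genes tested and the number at the right is the number of genes tested. The family has 3 of 4 genes lower in 2MUT and 5 of 5 with 2-HG, and the chondroitin and dermatan sulfate enzymes have 7 of 13 higher in 2MUT. Among the 5 members tested with 2-HG, Aspn passed the filter only through the 2-HG(-) libraries.

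The genes whose pattern was most like that of a member were found among 6715 genes (6716 for Omd) by the Euclidean distance over the 12 libraries, on log2(RPM + 1) relative to the untreated mean of the own table. The libraries of a group are shared by all genes, so the distances are a description. Nearest to Dcn were Mndal, Vwa5a and Cav1, at distances of 0.43, 0.49 and 0.59 against a median of 2.81. Bgn was nearest to Stxbp6, Pdk2 and Tapbp, at 0.56, 0.61 and 0.61 against a median of 2.59. Ogn was nearest to Apol9a, Apol9b and Bmp4, at 0.57, 0.88 and 0.91 against a median of 4.35, and Apol9a and Apol9b are near-identical copies whose reads may be shared. For Omd the nearest were Il1rn, Gdpd2 and Ndnf, at 0.87, 1.11 and 1.60 against a median of 5.37. Il1rn encodes the interleukin-1 receptor antagonist.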

How the data were processed

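RNA of 12 libraries of MEF cells was sequenced from Ion AmpliSeq libraries, in which 1 short target per transcript is amplified. The authors aligned reads with TMAP to the AmpliSeq mouse reference, counted them with the AmpliSeqRNA plug-in 5.2.0.3 in Torrent Suite 5.2.2 and deposited RPM in a table for each experiment. Every column was matched to a labelled sample, and 0 were left without one. Divided by the value of 1 read, 100% of values in each library came out whole (tolerance 0.1 read), which gave back reads and depth. Amplification can favour some targets, so levels are not comparable between genes.

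limma 3.58.1 in R 4.3.3 was run, with a mean-variance trend, on log2(RPM + 1) of the 6 libraries of a comparison. Genes averaging under 1 RPM were left out. The threshold was a Benjamini-Hochberg adjusted p-value under 0.05 with no limit on fold change. Members under the filter were compared by reads summed over the libraries of a group, with exact 95% intervals of the ratio for counting error. Alternatives were edgeR 4.0.16 and DESeq2 1.42.0 on recovered reads, an added value of 0.1 RPM, no filter or one at 10 RPM, quantile and median-of-ratios normalization, no trend, an unmoderated test, a replicate block and each library left out. The study used the unmoderated kind of test. The tests were also tested on simulated data. Named genes are the members, the family genes of their clusters, genes of the lists past the threshold, cell type markers and the 3 nearest in pattern. Flanking genes, Cenpp and Scp2 were added by position. Members and lists were chosen with earlier results of these data known. Summaries used pandas 2.3.3, intervals scipy 1.17.1 and plots matplotlib 3.10.9. Planned protein sequence features were not computed.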

Additional observations from a re-analysis of the deposited data

Results flagged for a closer look

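The changes in 2MUT and with 2-HG differed for the 4 members tested in both experiments, by the contrast over the 12 libraries (limma, Benjamini-Hochberg adjusted), which 39.4% of the 9594 genes tested also passed. On the log2(RPM + 1) scale, the change in 2MUT minus that with 2-HG was 3.53 for Omd, 1.09 for Ogn, 0.84 for Bgn and 0.38 for Dcn. The first 3 passed in every alternative in which they were tested, and Dcn did not (adjusted p between 0.00856 and 0.077). The filter at 10 RPM left Omd untested. Omd was 1.05 RPM in Control, which limited how far it could fall in 2MUT on this scale.

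Aspn and Prelp were under the filter in 2MUT, where all 3 mutant libraries lay above all 3 Control libraries, while all 3 libraries with 2-HG lay below their controls. The share of all genes separated in this way was not computed. Without the filter, neither rise in 2MUT passed (log2 fold change 0.47 for Aspn and 0.24 for Prelp, limma, adjusted p = 0.0649 and 0.384). The differences between the experiments, 2MUT minus 2-HG, were 3.13 for Aspn and 0.93 for Prelp. They had no test at the filter, and without the filter both passed (limma, adjusted p = 4.99e-07 and 0.00467). Lum also passed without the filter, in the opposite direction, at -0.99 (adjusted p = 0.000336), with the more negative change in 2MUT. Lum was only 0.0647 RPM in 2-HG(-), which left almost no room for a fall with 2-HG on this scale. Aspn and Prelp were under the floor in Control, at 0.095 RPM and 0.235 RPM, with little room for a fall in 2MUT. For these 3 members the contrast thus does not decide whether the responses differed. The differences also rest on few reads, with 2 of Aspn in Control, 1 of Lum in 2MUT, and 3 and 0 of Lum in 2-HG(-) and 2-HG(+). For Prelp the nearest libraries of the 2MUT experiment were at 0.285 RPM and 0.293 RPM, which is 2 reads in each.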

How the results depend on the processing

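Dcn, Bgn, Aspn, Omd and Ogn kept the direction of their tested changes under every alternative run, and the share of higher against lower genes moved by under 10 percentage points. Over all genes, 3741 passed in 2MUT and 3405 with 2-HG, and an unmoderated test gave 2244 and 2237, with fewer degrees of freedom per gene. With a library left out in turn the counts were 2755 to 3806 and 2356 to 3259, the members lower stayed at 3 and 5, and those that differed between the experiments numbered 3 to 4. The number of members higher in 2MUT went from 0 to 1 without the filter (Podn) and to 1 without the trend (Omd). Without the filter, 7 members rather than 4 differed between the experiments, since Lum, Aspn and Prelp became testable, Lum with the more negative change in 2MUT and the other 2 with 2-HG. Aspn and Prelp were under the floor in Control, and Lum in 2-HG(-), so a fall from those levels could hardly have been seen. The log2 fold change of Aspn with 2-HG was -5.04 with edgeR and -5.08 with DESeq2, against -2.65, and that of Ecm2 was -4.10 and -4.19, against -1.40. The median-of-ratios and unmoderated alternatives were not run for the difference between the experiments.

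With the replicate block, 3898 genes passed in 2MUT and 2503 with 2-HG, and 3 and 5 members were lower, as without it, while 3 rather than 4 differed between the experiments (Dcn, adjusted p = 0.0724). Libraries with the same number correlated by 0.07, 0.03 and 0.03 in 2MUT and by -0.46, -0.16 and 0.06 with 2-HG, so the numbers were not taken to pair the samples. Depth limits Fmod, Lum, Prelp and Podn, and Aspn in 2MUT, whose highest group sums were 2 reads for Fmod, 26 for Lum, 39 for Prelp, 19 for Podn and 11 for Aspn.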
